A study of Mus musculus with 8 samples.

Results

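The genes described here are those whose transcripts were low in mouse liver at postnatal day 14 and higher both before and after. They were chosen by the deposited RPKM, which count reads relative to transcript length and to all mapped reads, averaged over the 2 samples of each stage. A gene was kept when its means at E18, at P28 and in adult were all 1 RPKM or more and its mean at P14 was at most 0.4 times each of them, and symbols that start with Cyp, Col, Mbnl or Celf were left out. Of 22059 genes listed, 59 met the rule, which is 0.598% of the 9858 genes that had the 3 means at 1 RPKM or more and an allowed name. Because their P14 values selected them, the members' own P14 levels are a description with no test, and single members are tested only in contrasts without P14. Those contrasts are not free of the choice, since the rule also set a floor on the E18, P28 and adult means. Counts of genes called at P14 are given for whole gene lists beside the share of all genes, and the members in them were chosen by those contrasts.

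The samples were whole livers of wild-type mice, FVB in the labels and FVB/NJ in the study's methods, with no treatment named, taken on embryonic day 18 (E18), postnatal day 14 (P14), postnatal day 28 (P28) and at 3 months of age (adult), with 2 samples at each of the 4 stages. The study compared the stages to follow how the liver transcriptome matures after birth. The labels call the 2 samples replicates and give neither litter nor sex, so that p-values measure the spread between these samples. The study's methods name males for the adult livers of 3 months and give no sex for the E18, P14 or P28 livers. A difference in sex between adult and the other stages can therefore not be told apart from age. Whole liver holds several cell types, and at E18 it still makes blood, so that fewer cells of a type and less RNA per cell cannot be told apart in any value below. Reads on genes numbered 68154675 to 106055723 per sample, and all 59 members passed the filter on low counts. The labelled tissue was borne out by its markers, since the summed RPKM of 10 hepatocyte genes, all detected, was 36600 and 37400 (E18), 109000 and 108000 (P14), 84200 and 82800 (P28) and 66800 and 55000 (adult). The hepatocyte sum was thus highest at P14, but a sum weighs the most abundant genes most. In the edgeR fit described below, the median log2 change of the 10 genes at P14 was -0.38 against P28 and -0.64 against adult. Of the 10, 2 were called lower at P14 than in adult and 0 higher.

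Cholesterol is built from acetyl-CoA through mevalonate, isoprenoid diphosphates and squalene, and the genes for these steps are switched on together by the transcription factor SREBP-2 when sterols in the endoplasmic reticulum run low. SREBP-1c and ChREBP do the same for fatty acid synthesis when insulin and glucose are high. SREBPs bind next to NF-Y, a factor that recognises the letters CCAAT. Suckling mice live on milk, a fat-rich diet that also brings cholesterol, and move to carbohydrate-rich chow at weaning, which falls between P14 and P28.

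Of the 59 members, 11 were in a list of 25 cholesterol genes and 6 in a list of 30 fatty acid genes. Another 4 were in other lists, namely Aldoc in glycolysis, Hspa4l among heat shock proteins, Bbc3 among p53 targets and Hamp among acute phase proteins, so that 21 members were in a pathway list. Of the remaining 38, 6 were named as microRNA genes, 3 had names of predicted or unnamed transcripts and 29 were other named genes.

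Upstream sequences of members of the 2 lipid lists are shown because these genes share the dip at P14 and because CCAAT, the letters bound by NF-Y, were frequent in them. The sequences are from RefSeq on GRCm38.p6, which holds a promoter entry for 42 of the 59 members and 12 of these 17 lipid members. Each line gives the 120 bases before the start of transcription, 5′ to 3′ on the strand of the gene, with CCAAT on either strand (CCAAT or ATTGG) in capitals. Where a gene had several entries, the one with most CCAAT matches in these bases was taken. Of the genes shown this concerns Gpam, with 2 entries, of which the other held no CCAAT. The 5 windows that lie at most 30 bases inside an annotated exon are given, in the order Mvd (chr8:122443423-122443542, minus strand), Nsdhl (chrX:72918401-72918520, plus strand), Lss (chr10:76531485-76531604, plus strand), Fasn (chr11:120824548-120824667, minus strand) and Gpam (chr19:55127239-55127358, minus strand).
Mvd: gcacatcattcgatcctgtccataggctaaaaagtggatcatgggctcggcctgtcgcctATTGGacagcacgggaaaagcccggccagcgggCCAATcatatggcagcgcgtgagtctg
Nsdhl: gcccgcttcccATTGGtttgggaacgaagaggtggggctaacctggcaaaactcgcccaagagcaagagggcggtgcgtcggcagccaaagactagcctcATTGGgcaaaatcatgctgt
Lss: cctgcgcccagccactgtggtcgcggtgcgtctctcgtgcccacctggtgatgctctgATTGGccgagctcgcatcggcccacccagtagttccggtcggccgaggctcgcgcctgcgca
Fasn: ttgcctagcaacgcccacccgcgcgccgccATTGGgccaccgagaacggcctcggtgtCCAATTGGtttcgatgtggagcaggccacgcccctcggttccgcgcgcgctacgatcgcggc
Gpam: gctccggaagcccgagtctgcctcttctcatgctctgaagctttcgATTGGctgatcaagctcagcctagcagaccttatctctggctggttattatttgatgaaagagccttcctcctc
Mvd and Nsdhl each held 2 CCAAT matches in this window, Lss and Gpam 1 each, and Fasn 3, of which a pair on opposite strands overlap in the capitals near the centre.

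Over the 250 bases before the start, CCAAT was found on either strand in 10 of the 12 lipid members with an entry (83.3%), the exceptions being Elovl6 and Aacs. Dhcr7, Pklr and Gpam held it in 1 entry only, of 3, 2 and 2. It was found in 14 of the 30 other members with an entry (46.7%), in 3114 of 7714 genes with the 3 stage means at 1 RPKM or more (40.4%) and in 10133 of all 27025 genes with an entry (37.5%). In the whole cholesterol list it was found in 16 of 17 genes (94.1%), and in the whole fatty acid list in 15 of 25. Many genes of these lists that are not members thus held CCAAT too. Whether CCAAT goes with the dip was not tested. The classical sterol regulatory element, searched as TCACNCCAC on both strands, was found in 1 of 42 members (2.38%), Aldoc, against 1.22% of all genes, and in 0 of the 12 lipid members. CACGTG, an E-box that reads the same on both strands, was found in 9 of 42 members (21.4%) and 10.4% of the genes at 1 RPKM or more, and Insig1 was one of those holding it. GGGCGG, the GC box, was found in 25 of 42 members (59.5%) and 65.1% of those genes. The 4 motifs do not contain one another. A match is a run of letters, not a bound site.

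The cholesterol members covered the pathway from the end of the mevalonate arm to the last reduction. Mvd, which makes isopentenyl diphosphate, stood at 19.6 and 20.6 RPKM (E18), 3.17 and 2.22 (P14), 18.8 and 25.1 (P28) and 20.7 and 23.4 (adult). Idi1, the isomerase of the next step, was at 1.95 and 1.77, then 0.149 and 0.164, then 0.965 and 1.28, and 1.32 and 1.39 RPKM at the same stages. Fdps, which joins isoprenoid units into farnesyl diphosphate, was at 9.59 and 7.74 RPKM (E18), 1.01 and 0.870 (P14), 7.11 and 9.43 (P28) and 9.48 and 7.98 (adult). In all 3 genes both P14 samples lay several-fold below every other sample, and the means of the other 3 stages lay within 2-fold of each other.

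Sqle, the squalene epoxidase and a rate-limiting step, had the deepest dip of all members by the largest of its 3 ratios. Its level was 65.7 and 62.1 RPKM (E18), 2.00 and 2.22 (P14), 28.4 and 35.5 (P28) and 27.6 and 34.7 (adult). The P14 mean was 0.0331 of the E18 mean, 0.0662 of the P28 mean and 0.0678 of the adult mean. Lss, which closes the ring to lanosterol, had 55.4 and 52.5 RPKM (E18), 5.37 and 4.51 (P14), 18.0 and 21.8 (P28) and 25 and 26.3 (adult). Its return was partial in RPKM, since neither later stage reached the E18 samples.

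Sc4mol, the methylsterol oxidase now named Msmo1, was the most abundant of the cholesterol members per length. It measured 85.8 and 93.1 RPKM (E18), 15.4 and 16.5 (P14), 95.1 and 133 (P28) and 135 and 152 (adult). Nsdhl, the dehydrogenase that acts with it, had 36.3 and 36.7 RPKM (E18), 3.80 and 4.33 (P14), 34.6 and 39.8 (P28) and 46.2 and 47.0 (adult). Dhcr7, which reduces the last precursor to cholesterol, had 53.5 and 58.8 RPKM (E18), 11.2 and 11.8 (P14), 43.1 and 50.1 (P28) and 49.1 and 50.8 (adult). For Dhcr7 the E18, P28 and adult samples spanned 43.1 to 58.8 RPKM, so that the P14 samples were the only ones outside a narrow band.

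Insig1 and Stard4 act on sterol handling rather than on synthesis. Insig1, which holds SREBP in the endoplasmic reticulum and is itself an SREBP target, was at 9.94 and 8.61 RPKM (E18), 2.55 and 2.71 (P14), 36.1 and 44.6 (P28) and 41.4 and 40.5 (adult). Stard4, a carrier of cholesterol between membranes, was at 34.7 and 25.8 RPKM (E18), 9.17 and 8.28 (P14), 29.4 and 29.1 (P28) and 40.4 and 45.0 (adult). Insig1 was higher in every P28 and adult sample than at E18, with no overlap of these groups, while both genes were lowest at P14.

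**Figure D1:**
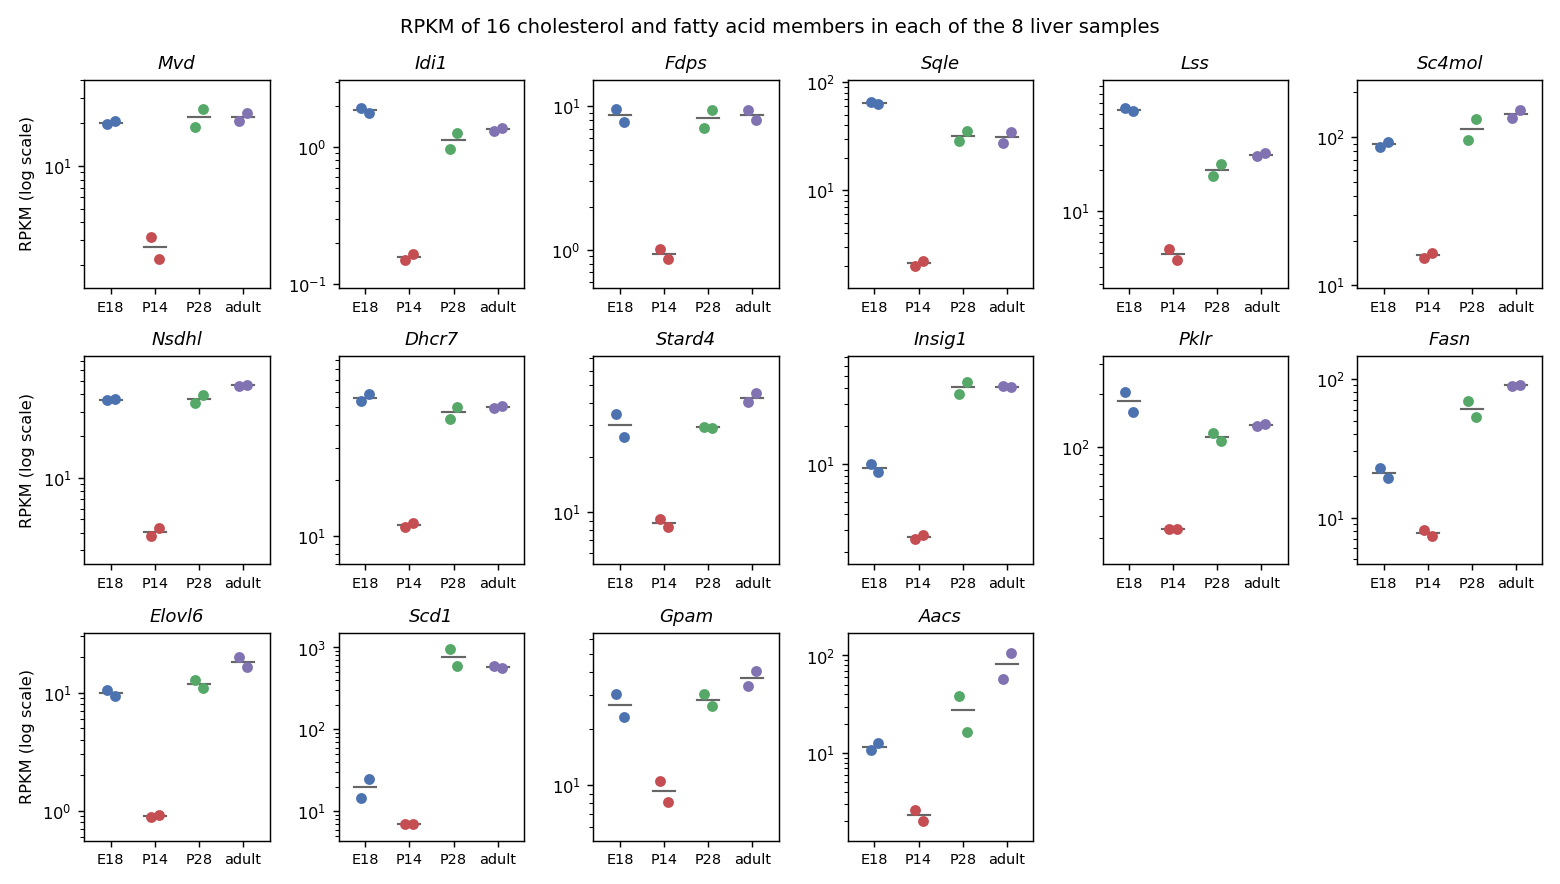
RPKM (log scale) of 16 cholesterol and fatty acid members at the 4 stages. Each point is a sample, 2 per stage, and the short bar is their mean. The P14 samples are the lowest in every panel, with Scd1 at 7.09 and 6.99 RPKM at P14 against 947 and 589 at P28.

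Over the 11 cholesterol members the median ratio of the P14 mean to another stage's mean was 0.111 for E18, 0.139 for P28 and 0.115 for adult. The other 14 genes of the list were nearer to 1, with medians of 0.524, 0.573 and 0.472. All 14 had a P14 mean below those at P28 and in adult, and 11 had one below that at E18. Among them Cyp51, the lanosterol demethylase, met every value of the rule and was left out by its name, with 40.3 and 44.0 RPKM (E18), 6.59 and 6.84 (P14), 41.2 and 48.5 (P28) and 48.4 and 55 (adult). Ebp and Sc5d, which work late in the pathway, were lower at E18 than at P14, with Ebp at 39.6 and 43.0 RPKM at E18 and 89.9 and 91.8 at P14. Srebf2, the gene of SREBP-2, was at 35.6 and 33.2 RPKM (E18), 10.3 and 11.4 (P14), 15.5 and 15.8 (P28) and 11.2 and 14.1 (adult), so that its P14 and adult levels were close.

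In the edgeR fit over all genes, with a change called at a false discovery rate below 0.1 and over 3-fold, 10 of the 25 cholesterol genes were called lower at P14 than at E18, against 15.4% of all 17081 genes tested. Against P28 13 of 25 were called lower, with 3.61% of all genes, and against adult 15 of 25, with 4.35%. The members account for 8, 11 and 11 of these calls and were chosen by the same contrasts, so nothing is read from those. The calls outside the members included Cyp51 and Tm7sf2 against both stages and Hsd17b7 against adult. With library size alone in place of composition scaling the number lower than at E18 was 16.

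**Figure D2:**
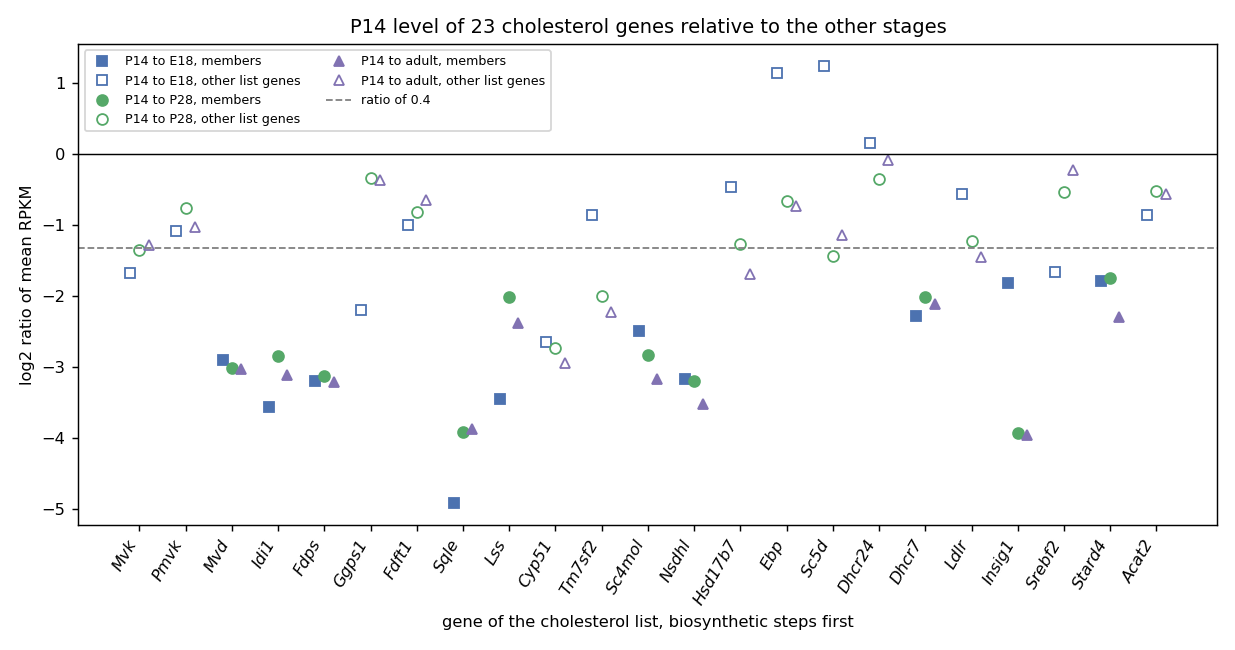
log2 ratio of the mean RPKM at P14 to that at E18 (squares), P28 (circles) and adult (triangles) for 23 genes of the cholesterol list. Filled symbols are members and open symbols other genes, and the dashed line is the ratio of 0.4 in the rule. Ebp and Sc5d lie above 0 against E18, and Cyp51 lies with the members.

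Fatty acid members were Pklr, Fasn, Elovl6, Scd1, Gpam and Aacs. Pklr, the liver pyruvate kinase that ends glycolysis, had 207 and 159 RPKM (E18), 34.0 in both samples (P14), 121 and 108 (P28) and 131 and 135 (adult). Fasn, the fatty acid synthase, had 22.7 and 19.4 RPKM (E18), 8.13 and 7.36 (P14), 69.4 and 52.8 (P28) and 89.1 and 91.0 (adult). Elovl6, which extends the palmitate that Fasn makes, had 10.5 and 9.32 RPKM (E18), 0.889 and 0.913 (P14), 12.9 and 11 (P28) and 20.2 and 16.4 (adult). Fasn and Elovl6 were higher in both adult samples than in any sample of another stage.

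Scd1, the desaturase that makes oleate, had 14.7 and 24.8 RPKM (E18), 7.09 and 6.99 (P14), 947 and 589 (P28) and 602 and 561 (adult). Gpam, which starts triglyceride synthesis, had 30.4 and 22.9 RPKM (E18), 10.5 and 8.07 (P14), 30.6 and 26.2 (P28) and 33.8 and 40.5 (adult). Aacs, the synthetase that turns acetoacetate into a lipid precursor, had 10.7 and 12.6 RPKM (E18), 2.59 and 2.02 (P14), 38.5 and 16.6 (P28) and 57.8 and 107 (adult). The dip of Scd1 was shallow on the E18 side, with a ratio of 0.356, and deep on the P28 side, with a ratio of 0.00917. Aacs differed more than 2-fold between its P28 samples, and its adult samples also spread widely.

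Of the 30 fatty acid genes, 10 were called lower at P14 than at P28, against 3.61% of all genes, and 14 lower than in adult, against 4.35%. The members, chosen by these contrasts, were 6 in each case. Acss2, Acacb, Me1 and Thrsp made up the rest against P28. Only 4 of the 30 were called lower at P14 than at E18, against 15.4% of all genes, and 1 of these, Elovl6, was a member. At P14 13 of the 30 were called higher than at E18, against 13.8% of all genes, and none of these was a member. In the cholesterol list 2 of 25 were. Acss2, which makes acetyl-CoA from acetate, had 14.6 and 15.6 RPKM (E18), 7.19 and 7.20 (P14), 49.3 and 41.9 (P28) and 68.9 and 71.5 (adult). Thrsp, a lipogenic gene induced by feeding, was higher at each later stage, with 0.113 and 0.137 RPKM (E18), 36.8 and 31.3 (P14), 391 and 625 (P28) and 2480 and 2070 (adult). Srebf1, the gene of SREBP-1, was at 38.0 and 41.8 RPKM at E18 and 117 and 133 at P14, and thus higher at P14 than at E18.

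Aldoc, an aldolase that is not the main liver form, was at 10.4 and 9.52 RPKM (E18), 3.14 and 3.37 (P14), 8.68 and 11.6 (P28) and 13.0 and 10.7 (adult). Among genes in no list that act on lipids, Acot11, an acyl-CoA thioesterase, was at 4.76 and 5.28 RPKM (E18), 0.468 and 0.589 (P14), 3.56 and 5.13 (P28) and 6.47 and 7.80 (adult). Fam151a, which overlaps Acot11 on the opposite strand, was at 5.69 and 6.48, then 0.552 and 0.794, then 4.53 and 6.62, and 8.42 and 10.1 RPKM. Rdh11, a retinol dehydrogenase, was at 33.9 and 28.5 RPKM (E18), 6.19 and 6.27 (P14), 33.5 and 29.2 (P28) and 24.7 and 27.0 (adult). Elovl1, an elongase of very long chains, was at 52.3 and 53.7, then 15.1 and 14.6, then 45.6 and 43.9, and 34.9 and 41.2 RPKM.

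Hamp, which encodes the iron hormone hepcidin, had 2.01 and 1.89 RPKM (E18), 0.811 and 0.664 (P14), 499 and 640 (P28) and 4010 and 4050 (adult). Only 36 and 29 reads lay behind the P14 values, and the E18 level was itself far below the later ones. Hamp2, its near-identical neighbour, was at 0.122 and 0.0812, then 0.508 and 0.764, then 94.1 and 77.2, and 88.1 and 99.6 RPKM at the same stages, and how reads shared by the copies were counted is not stated. Creg1, a secreted glycoprotein, was among the most abundant members, with 146 and 169 RPKM (E18), 51.7 and 49.4 (P14), 139 and 144 (P28) and 156 and 130 (adult). Hebp1, which binds heme, was the most abundant at E18, with 266 and 382 RPKM, and 95.9 and 95.4 (P14), 241 and 248 (P28) and 305 and 283 (adult) afterwards. Acmsd, which diverts tryptophan breakdown away from NAD synthesis, was at 5.58 and 7.86 RPKM (E18), 2.49 and 2.35 (P14), 6.90 and 7.78 (P28) and 26.8 and 18.9 (adult).

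Akr1c19, an aldo-keto reductase, had 22.1 and 16.3 RPKM (E18), 1.18 and 1.04 (P14), 8.55 and 7.98 (P28) and 14.8 and 11.2 (adult). Hspa4l, a cochaperone of the Hsp110 type, had 10.2 and 10.3, then 1.59 and 1.67, then 4.14 and 4.48, and 5.60 and 4.68 RPKM. Bbc3, the death-promoting protein PUMA, had 5.24 and 5.15 RPKM (E18), 1.06 and 1.45 (P14), 7.05 and 10.3 (P28) and 5.70 and 3.97 (adult). Lad1, an anchoring filament protein, rested on 20 and 69 reads at P14 and was at 2.56 and 1.32, then 0.0593 and 0.208, then 1.53 and 1.39, and 1.86 and 2.19 RPKM. The P14 samples of Lad1 differed 3.51-fold, the widest spread among members, and still lay below all others. Mcm10, a replication factor, was at 29.5 and 30.6 RPKM (E18), 6.38 and 6.58 (P14), 31.9 and 37.0 (P28) and 67.4 and 77.9 (adult).

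The 15 members not described singly were Lrrc16a (now Carmil1), Snx29, Mast3, Prelid2, Tmco6, Tifa, Lmbrd2, Pdpr, Rnf186, Hcn3, Gba2, N4bp2, Arrdc2, Zfyve26 and Gm15350. Their stage means ranged from 1.4 to 18.7 RPKM for E18, 0.207 to 3.64 for P14, 1.04 to 10.5 for P28 and 2.32 to 14 for adult. Among them Gba2 removes glucose from ceramide outside lysosomes, Pdpr belongs to the phosphatase that turns pyruvate dehydrogenase on and Hcn3 is an ion channel.

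Several members were highest at E18 in RPKM, as red-cell genes were, and 4 of them follow. Sqle, Lss and Hspa4l were also highest at E18, so this is not particular to the 4. Slc6a9, a glycine transporter, was at 56.9 and 62.6 RPKM (E18), 1.46 and 1.71 (P14), 8.52 and 9.35 (P28) and 7.85 and 11.4 (adult). Car1, a carbonic anhydrase of red cells, was at 37.2 and 22.8, then 0.839 and 0.809, then 4.45 and 5.70, and 9.18 and 8.82 RPKM. Phospho1, a phosphatase, was at 34.9 and 49.9 RPKM (E18), 1.23 and 1.11 (P14), 5.55 and 4.96 (P28) and 2.51 and 3.63 (adult). Cpeb4, which controls the poly(A) tails of messages, was at 37.2 and 25.8, then 1.68 and 1.33, then 8.15 and 3.61, and 3.16 and 4.63 RPKM. The summed RPKM of 8 erythroid markers, all detected, was 9480 and 12100 (E18), 121 and 109 (P14), 54.0 and 56.1 (P28) and 44.8 and 47.2 (adult). The erythroid sum, like these 4 genes, was highest at E18, but it did not follow their rise from P14 to P28. Between the E18 samples it rose with Slc6a9 and Phospho1, whereas Car1 and Cpeb4 fell. The sums of neutrophil markers, 1980 and 2470 RPKM at E18, and of megakaryocyte markers, 286 and 386, were also highest at E18. The part of blood cells in the E18 level was not tested.

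Erp27, a chaperone of the endoplasmic reticulum, was at 0.774 and 1.92 RPKM (E18), 0.140 and 0.142 (P14), 1.36 and 2.18 (P28) and 3.92 and 3.37 (adult), with 15 reads in each P14 sample. The sum of 11 pancreas markers, each above 0 in at least 1 sample, was 287 and 652 RPKM (E18), 24.6 and 25.5 (P14), 86.3 and 90.4 (P28) and 78.0 and 90.5 (adult). The lower sample of E18 was the same in both. P14 was lowest in both, which for Erp27 the rule had fixed. The pancreas sum was highest at E18, whereas Erp27 was highest in adult, and the order of the adult samples was opposite. The part of pancreas RNA in Erp27 was not tested.

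The gene body of 25 members overlapped another listed gene in the GENCODE M21 annotation of GRCm38. The strand of the libraries is not stated, so that reads of overlapping genes on opposite strands cannot be told apart. Lss and 4930483K19Rik, Pklr and Hcn3, and Fam151a and Acot11 are such pairs in which both are members, and they cannot be counted as separate dips. 4930483K19Rik averaged 16.5, 1.44, 6.37 and 7.73 RPKM over the stages in order of age, beside 53.9, 4.94, 19.9 and 25.7 for Lss. 4930471I20Rik overlaps Acss2 on the opposite strand and stood at 13.2 and 13.0 RPKM (E18), 4.98 and 4.96 (P14), 38.5 and 33.1 (P28) and 50.4 and 52.4 (adult).

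The 6 microRNA genes, Mir599, Mir875, Mir3075, Mir706, Mir98 and Mirlet7f-2, lie within other genes and were counted in poly(A) RNA, so that their values are reads over hairpin loci and not mature microRNAs. Mir98 and Mirlet7f-2, both in Huwe1, had the same read count in each of the 8 samples, among them 104 and 58 at P14, and are 1 measurement. The mean RPKM of Huwe1 was 18.2, 8.07, 13.6 and 15.9 over the stages in order of age. Mir599 and Mir875, both in Vps13b, rested on 2 and 3 reads at P14. Vps13b averaged 4, 2.12, 3.38 and 3.64 RPKM. Huwe1 and Vps13b were thus also lowest at P14, though less deeply than the rule asks. Zmiz1, the host of Mir3075, averaged 6.8, 4.34, 6.33 and 5.51 RPKM, and Wnk1, the host of Mir706, 28.3, 7.09, 6.96 and 8.41 RPKM.

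At P14 the replicates of most members differed little beside the dip. The median fold between the P14 samples of a member was 1.11, and 2 of the 59, Lad1 and Mir706, differed more than 2-fold. Between the E18 samples 5 members did, namely Erp27, Mir599, Mir875, Mir706 and Pdpr. Between the P28 samples 3 did, namely Gm15350, Aacs and Cpeb4, and between the adult samples 0. In 46 members both P14 samples held at least 100 reads, and counting limits the other 13 most. When the rule was applied to the replicate 1 samples alone, 58 genes met it, and 45 of these (77.6%) met it in the replicate 2 samples, against 0.681% of all genes in the pool there. In the other direction 67 genes met it in replicate 2 and 45 of these (67.2%) met it in replicate 1, against 0.59%. P14 was the lowest stage in 57 of the 58 and 63 of the 67 in the samples not used to choose them. These counts describe how alike the duplicates of a stage were and are no test of the dip.

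RPKM are taken relative to all mapped reads, and a library in which a few genes take many reads shows lower RPKM for the rest. The composition factors of the trimmed mean of M-values (TMM) were 1.598 and 1.539 at E18 and between 0.847 and 0.888 in the other 6 samples. Composition-scaled RPKM were computed with the total reads on genes multiplied by these factors in place of the mapped total. This raised the ratio of P14 to E18 by 1.81-fold and changed the ratios to P28 and adult by factors of 0.976 and 0.989. The members' median ratio to E18 rose from 0.197 to 0.357, while that of all genes in the pool rose from 0.628 to 1.14. The median ratio to P28 went from 0.199 to 0.193 and that to adult from 0.186 to 0.184, beside 0.954 and 0.917 after scaling for the pool. These factors were nearly the same for every gene, and the rule had capped the ratios at 0.4. P14 therefore had to remain the lowest stage in all 59 members, and the ratios to P28 and to adult had to stay near or below 0.4. They were at most 0.4 in all 59, which follows from the rule and is no check on it.

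The E18 side depended on the scaling. In 36 members the scaled ratio to E18 was at most 0.4 and in 23 it was above, up to 0.688. The whole rule in scaled RPKM was met by 40 genes, or 0.402% of 9944, of which 34 were members. Among the 17 lipid members 12 met it, including 9 of the 11 cholesterol members, the exceptions being Insig1 and Stard4 with ratios of 0.514 and 0.524. Of the 6 fatty acid members Elovl6, Aacs and Pklr met it, with scaled ratios to E18 of 0.165, 0.359 and 0.338. Fasn, Scd1 and Gpam had 0.667, 0.644 and 0.632, and Hamp had 0.685. In each of these 4 genes the scaled E18 mean lay below the scaled means of P28 and adult.

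**Figure D3:**
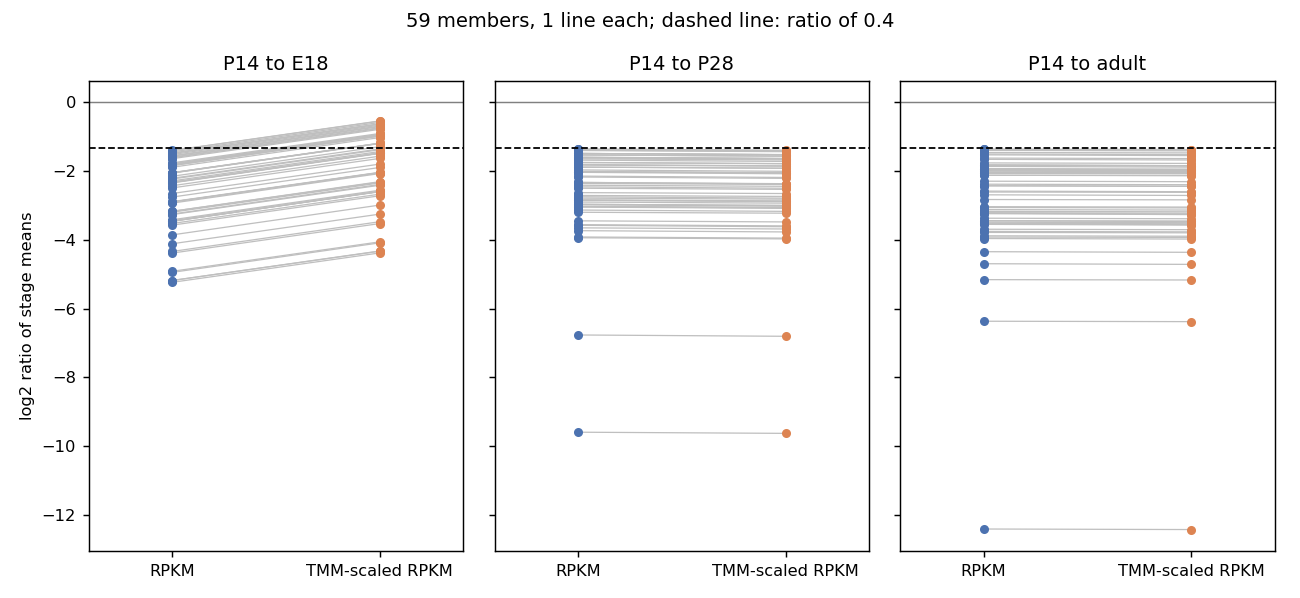
log2 ratio of the P14 mean to the mean at E18, P28 and in adult for the 59 members, from RPKM (left points) and from composition-scaled RPKM (right points), with a line for each member. The dashed line is the ratio of 0.4. Scaling moves 23 members above it against E18 and leaves all 59 below it against P28 and adult.

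At the threshold, the members just inside were Hebp1, Elovl1 and Zfyve26, whose largest ratio of P14 to another stage was 0.3909, 0.3899 and 0.3867. Just outside were Lcp1 at 0.4008, Zbed6 at 0.4027 and Pim1 at 0.4053. The ratios on each side of the limit differed by less than the median spread between P14 duplicates. A limit of 0.33 in place of 0.4 left 39 genes and a limit of 0.5 gave 124. Mbnl2, a splicing factor left out by its name, was at 7.15 and 5.38 RPKM (E18), 2.00 and 2.04 (P14), 4.32 and 6.09 (P28) and 7.32 and 6.77 (adult).

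Contrasts without P14 show where the members stood before and after the dip. From E18 to adult 14 of the 59 (23.7%) were called higher, against 16.8% of all genes tested, and 3 (5.08%) lower, against 23.8%, while 42 were called neither. The members' median change was 0.77 on the log2 scale, beside -0.11 for all genes. With library size alone these medians were -0.08 and -0.95, and 8 members were called higher and 6 lower, so the direction of the E18 contrasts depends on the scaling, whereas the members stayed above the median of all genes under both. The rule keeps only genes with at least 1 RPKM at E18, at P28 and in adult, which the background does not. Genes that fell below 1 RPKM after E18 were thus barred. The low share called lower and the higher median therefore follow in part from the rule, here and in the contrasts with P28 below.

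The largest rise was that of Hamp, by 11.88 on the log2 scale (SE 0.21, edgeR Benjamini-Hochberg adjusted p = 1.2e-09). Scd1 rose by 5.75 (SE 0.34, edgeR adjusted p = 3.3e-07) and Aacs by 3.69 (SE 0.42, edgeR adjusted p = 3.1e-05). Insig1 rose by 3.02 (SE 0.12) and Fasn by 2.97 (SE 0.16), with edgeR adjusted p of 2.9e-08 and 1.7e-07. Elovl6 rose by 1.76 (SE 0.13, edgeR adjusted p = 2e-06), which fell to 1.58 and below the 3-fold limit without adult replicate 1 and to 0.91 with library size alone. Scd1, Aacs, Insig1, Fasn and Elovl6 were the 5 lipid members called, and the other 12 stayed within 3-fold.

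The 3 members called lower in adult than at E18 were Phospho1, at -2.92 (SE 0.21, edgeR adjusted p = 1.5e-06), Cpeb4, at -2.14 (SE 0.36, edgeR adjusted p = 0.00043), and Slc6a9, at -1.76 (SE 0.16, edgeR adjusted p = 7e-06). Slc6a9 was at -1.53 and within 3-fold without adult replicate 1. Like the erythroid markers above, these genes were highest at E18. Sqle changed by -0.16 (SE 0.13, edgeR adjusted p = 0.27) and Lss by -0.20 (SE 0.11, edgeR adjusted p = 0.12), so that a difference between E18 and adult was not detected for these genes after scaling.

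**Figure D4:**
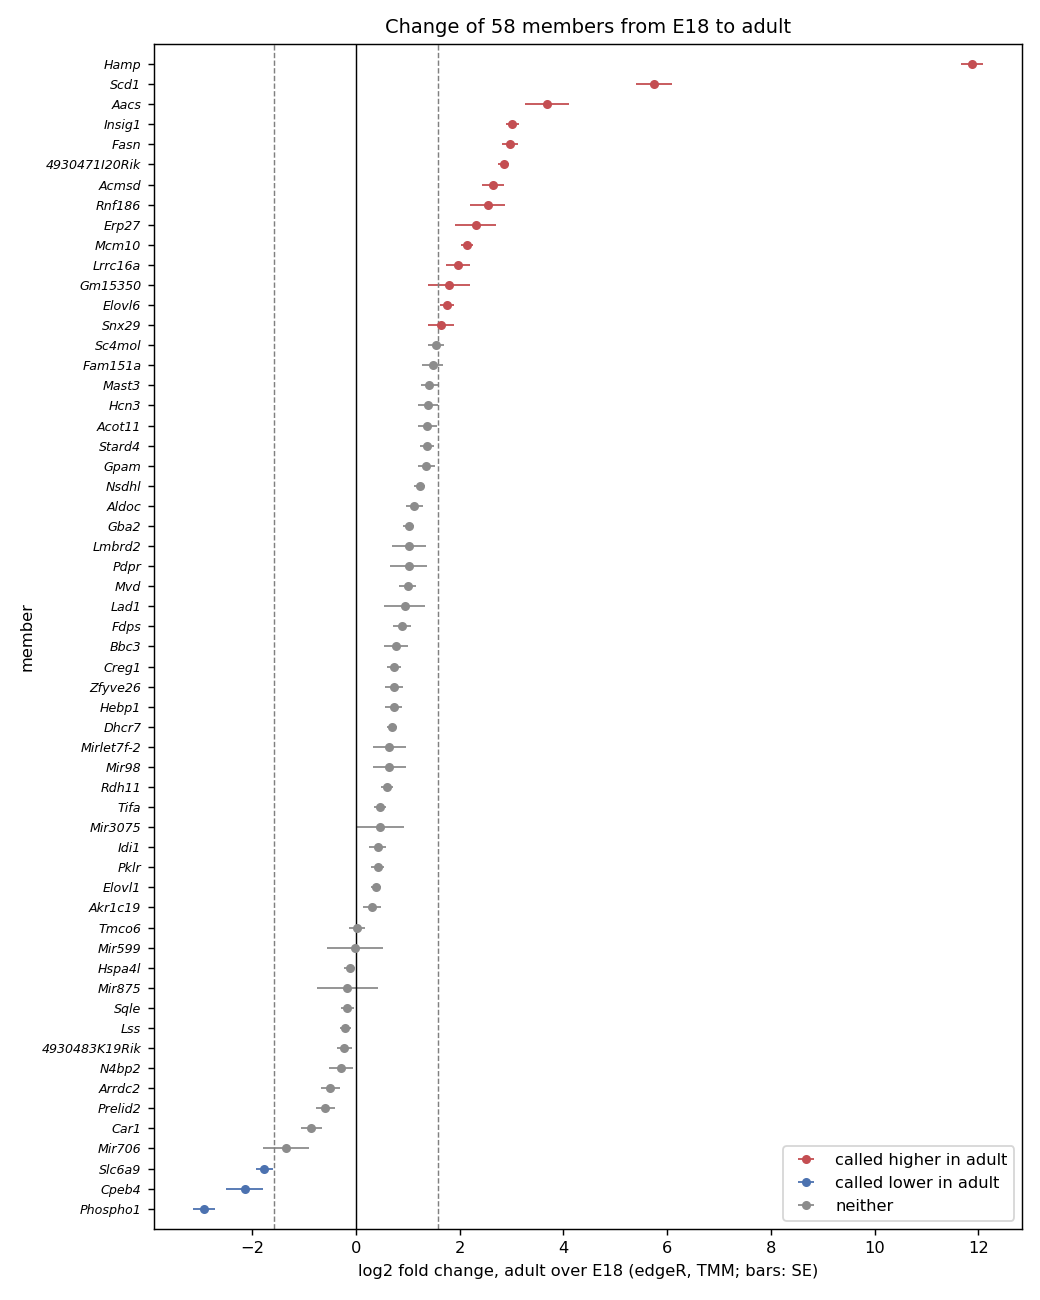
log2 fold change from E18 to adult of 58 members in the edgeR fit with TMM scaling, with bars of 1 SE. Red marks the 14 members called higher in adult, blue the 3 called lower and grey those called neither, and dashed lines mark 3-fold. Hamp lies farthest to the right at 11.88.

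Between P28 and adult few members moved. Hamp rose by 2.81 (SE 0.14, edgeR adjusted p = 1.9e-05) and Acmsd by 1.62 (SE 0.21, edgeR adjusted p = 0.0015), so that 2 of 59 (3.39%) were called higher against 0.767% of all genes. In edgeR 0 were called lower, against 2.24% of all genes, with 5 members lower at an unadjusted p under 0.05 and 0 called by DESeq2. The members' median change was 0.26, beside 0.00 for all genes. Within the 17 lipid members the median was 0.31 and the largest change was that of Aacs, at 1.55 and within 3-fold.

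From E18 to P28 9 members (15.3%) were called higher, against 16.5% of all genes, and 4 (6.78%) lower, against 21%. Those higher were Scd1, Fasn, Aacs, Insig1, Hamp, Bbc3, Lrrc16a, Rnf186 and 4930471I20Rik. Those lower were Car1, Slc6a9, Phospho1 and Mir706. The median change was 0.65 for the members and -0.09 for all genes. As above, the floor of 1 RPKM in the rule bars genes lost after E18 from the members but not from the background. With library size alone 3 were called higher and 6 lower.

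Other gene lists were also counted at P14. Of all genes, 3.61% were called lower than at P28 and 4.35% lower than in adult. Several lists had counts near the shares of all genes, and nothing is read from those. The glycolysis, heat shock, p53 and acute phase lists hold the members Pklr, Aldoc, Hspa4l, Bbc3 and Hamp, which were chosen by these contrasts. In the cell cycle list 21 of 30 genes were called higher at P14 than at P28, against 5.98% of all genes, and 23 higher than in adult, against 11.1%, and this list holds no member. Actin and SRF targets were higher than at P28 in 4 of 28 and higher than in adult in 7, and neither list had a gene called lower. Glucocorticoid targets were higher than at P28 in 5 of 16 with 0 lower, and against adult 6 were higher and 1 lower. Interferon genes were lower than at P28 in 11 of 30 with 0 higher, whereas against adult 1 was lower and 4 were higher. Acute phase proteins were lower in 6 of 23 against each stage, Hamp among them, and higher in 1 against P28 and 3 against adult. Heat shock proteins were lower than at P28 in 2 of 20 and than in adult in 5, NRF2 targets in 4 and 4 of 17 and the unfolded protein response in 3 and 2 of 20, and these lists had no gene called higher. In the remaining lists calls went both ways. ATF4 targets were higher than at P28 in 2 of 21 and lower in 2, and against adult 5 were higher and 2 lower. Clock genes were higher than at P28 in 2 of 20 and lower in 3, and against adult 2 were higher and 5 lower. Immediate early genes were higher than at P28 in 3 of 33 and lower in 2, and against adult 8 were higher and 1 lower. Glycolysis genes were lower than at P28 in 3 of 26 with 0 higher, and against adult 4 were lower and 2 higher. Targets of p53 had 1 of 16 in each direction against P28, and 4 higher and 1 lower against adult. Insulin and FoxO targets were higher than at P28 in 1 of 13 with 0 lower, and against adult 2 were higher and 1 lower.

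**Figure D5:**
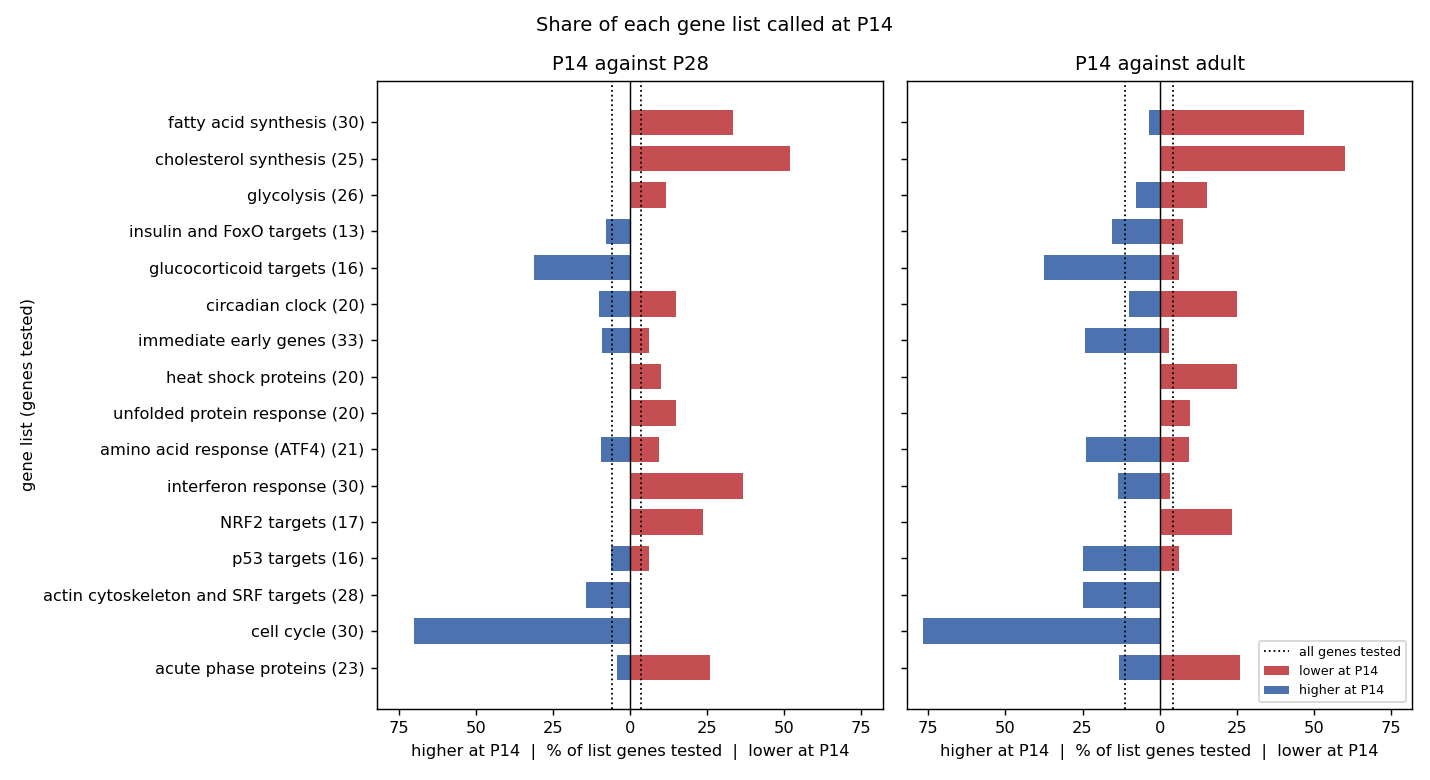
Share of each gene list called lower (right, red) or higher (left, blue) at P14 than at P28 (left panel) and in adult (right panel), in percent of list genes tested. Dotted lines are the shares of all 17081 genes tested, 3.61% lower and 5.98% higher against P28 and 4.35% lower and 11.1% higher against adult. The cholesterol and fatty acid bars include members that these contrasts chose, and the glycolysis, heat shock, p53 and acute phase lists also hold such members.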

How the data were processed

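Livers of wild-type mice (FVB in the labels, FVB/NJ in the methods) were profiled by poly(A) RNA-seq with 100 base read pairs. RNA was isolated with Trizol per the labels and with an RNeasy kit per the methods. The authors deposited raw read counts per gene symbol and RPKM, which the authors computed from these counts per kilobase and 1000000 mapped reads. The submitters' processing notes name mm9, and the aligner is not given in the sources used here. Between 68154675 and 106055723 reads per sample lay on the 22059 listed genes. The 2 samples of a stage differed by far more than sampling noise and were kept as 2.

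The members, lists, tests and alternatives were chosen with earlier results of these data known. The list genes were taken from general knowledge of each pathway. Named were all members in a list, the 12 deepest dips, the 8 highest adult levels, the largest called changes, the genes nearest the threshold, and the highest and lowest scaled ratios, and further members were described by their role. Counts were filtered with filterByExpr, which left 17081 genes, scaled by TMM and fitted with glmQLFit in edgeR 4.0.16 (R 4.3.3), 1 coefficient per stage, all 8 samples, and stages were compared with glmQLFTest and Benjamini-Hochberg adjustment over all genes tested. A call required both a change over 3-fold and a false discovery rate below 0.1. Composition-scaled RPKM are counts per kilobase and 1000000 effective reads, which are the reads on genes multiplied by the TMM factor. DESeq2 1.42.0, other scalings, filters, a replicate block and leaving out each sample were alternatives. Promoters came from RefSeq (GRCm38.p6) and overlaps from GENCODE M21. Motifs were counted per gene, in any of its promoter entries. RPKM scale with library composition, and reads of overlapping genes are not separated. Some genes of the lists are not reported here by name.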

Additional observations from a re-analysis of the deposited data

How the results depend on the processing

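The 59 members became 39 with a ratio limit of 0.33 and 124 with 0.5. With composition-scaled RPKM there were 40 (34 shared with the 59) and with median-ratio scaling 43 (35 shared), with a minimum of 0.5 RPKM 75 and of 2 RPKM 50, and 41 when both P14 samples had to meet the limit against the lower sample of each stage. Leaving out each sample in turn gave 57 to 72. Members called between E18 and adult (17), P28 and adult (2) and E18 and P28 (13) numbered 49, 21 and 45 without the fold limit, 32, 5 and 23 at 2-fold, and 7, 0 and 6 among the 34 members that also met the rule when scaled. Without 1 sample they ranged over 15 to 20, 2 to 3 and 11 to 14. With library size alone the split of higher and lower was 8 and 6 from E18 to adult (14 and 3 with TMM) and 3 and 6 from E18 to P28 (9 and 4 with TMM). The replicate block gave 17, 3 and 12. Replicate numbers are only names here, since the deviations of same-numbered samples correlated between -0.414 and 0.161 (mean -0.094) over 6 pairs of stages, and the block changed no other count by over 1.5 times. Cholesterol genes called lower at P14 than at E18 numbered 16 with library size alone against 10, and the counts of both lipid lists at P14 otherwise stayed within 1.5 times. Leaving out a sample gave 9 to 10, 13 to 13 and 14 to 15 cholesterol genes lower than at E18, P28 and adult, and 4 to 5, 9 to 13 and 12 to 14 fatty acid genes. Of 510 alternative values for the E18 to adult change of 34 named members, 491 kept their direction and their side of the limits, 4 fell below a limit (Elovl6 at 0.91 and 1.58, Erp27 at 1.47 and Slc6a9 at -1.53), 5 passed one (Fam151a and Sc4mol among them) and 10 changed sign, all in genes called neither way with TMM and all samples. With library size alone Akr1c19 was at -0.54, Elovl1 at -0.45, Idi1 and Pklr at -0.43 and Dhcr7 at -0.14. Creg1, Hebp1 and Zfyve26 were then at -0.11 and Bbc3 at -0.08. Hspa4l, at -0.12 with TMM and all samples, changed sign to 0.02 without adult replicate 2. It was at -0.27 without adult replicate 1 and at -0.97 with library size alone. The cause of these shifts was not tested. Depth limits the 13 members with under 100 reads in a P14 sample.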
